A study of Mus musculus with 12 samples.

Results

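Cytosolic nucleic acid sensing was followed at 10 genes of the 54446 in the count files: the DNA sensor *Cgas* (*Mb21d1* in older annotations), its adaptor *Tmem173* (STING), the RNA sensors *Ddx58* (RIG-I) and *Ifih1* (MDA5), their adaptor *Mavs*, the Z-nucleic acid sensor *Zbp1*, the kinase *Tbk1*, the transcription factors *Irf3* and *Irf7*, and the DNase *Trex1*. They were picked by name for their place in the pathway, by a rule that uses no measured value although earlier results of these data were known, and all 10 were present in the files. DNA in the cytosol is bound by cGAS, which makes the messenger cGAMP that switches on STING, and viral or misplaced double-stranded RNA is bound by RIG-I and MDA5, which act through MAVS on mitochondria. Both routes meet at the kinase TBK1, which phosphorylates IRF3 and IRF7 to start type I interferon transcription, while TREX1 degrades stray DNA before it is sensed. In irradiated tumors this pathway is known as a source of interferon in myeloid cells, and YTHDF2, a reader of the RNA mark m6A, is known to bring the transcripts it binds to decay.

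CD11b+ myeloid cells were isolated from subcutaneous tumors of MC38, a murine colon carcinoma line, grown in WT mice. In the study's methods WT stands for *Ythdf2* f/f mice, which carry the floxed allele without Cre, and this genotype was shared by all groups. Tumors were unirradiated (Ctrl) or had received a single local dose of 20 Gy, with cells taken 3 days later (IR). Each condition had 3 pools of cells, each from several mice, and every pool gave an Input library (RNA of the lysate) and an IP library (RNA recovered with an anti-YTHDF2 antibody), which made 12 libraries in 4 groups. The methods call the pools technical replicates, so the p-values measure the spread between pools, which may be technical. The sample labels name an Abcam antibody and an mRNA isolation step, whereas the methods name an Aviva antibody and total RNA. No IP with a control antibody was analysed here, so IP over Input holds any RNA that the beads recovered without YTHDF2.

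Between 34445784 and 42382532 reads were counted on genes in the Inputs and between 27852948 and 33882664 in the IPs, and 3 counts were worth 0.0708 to 0.108 CPM (counts scaled to library size with TMM factors over all libraries). Reads on no annotated gene made up 24.6% to 27.0% of the Inputs, 41.8% to 42.7% of the Ctrl IPs and 49.4% to 54.1% of the IR IPs. The part of this share in any IP result was not tested. All 8 markers of CD11b+ myeloid cells were detected, and their summed level was 4250 to 4348 CPM in the Ctrl Inputs and 5274 to 5293 CPM in the IR Inputs. Of the 8, 4 were called higher and 2 lower in the IR Inputs. *Itgam* went from a mean of 944 to 1718 CPM and *Csf1r* from 214 to 208 CPM. Of the exon bases of *Itgam*, 68.7% are shared with another gene on its strand. Of the carcinoma markers, *Krt8*, *Krt19* and *Cldn4* had at most 3 counts in every Input, as had the lymphocyte markers *Cd3e* and *Ncr1*.

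Of the 10 genes, 9 were tested. *Trex1* (ENSMUSG00000049734.9, chr9:109057933-109059734, mm10, minus strand) had 0 counts in all 12 libraries. Every one of its 1147 exon bases, 100% in the GENCODE M21 annotation, is also an exon base of *Atrip* on the same strand. *Atrip*, a partner of the checkpoint kinase ATR, had 152 to 427 counts per library. Among protein-coding genes whose exons are shared in full with a gene on the same strand, 133 of 133 had 0 counts in all libraries, against 2028 of 20177 genes (10.1%) with no shared exon base. The counts therefore hold no measurement of *Trex1*, and a level or a bound cannot be given for it. For the other 9 genes, no exon base was shared with a gene on the same strand. Opposite-strand genes covered 2.56% of the exon bases of *Irf3*, 1.19% of those of *Irf7* and 4.87% of those of *Cgas*, and the strand option of the counting is not given in the sources used here.

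YTHDF2 recognises m6A, which is laid down in a consensus whose commonest form is GGACT and is most frequent near stop codons. As a description of what the transcripts hold, each member's transcript with the longest coding sequence (GENCODE M21, mm10) was searched for GGACT on its own strand. Of the copies whose 8 bases on either side lie in the same exon, the nearest to the end of the stop codon is shown with those bases and the motif in capitals. None is shown for *Tmem173*, nor for *Zbp1*, whose single copy, 17 bases from that end, has an exon junction in its window. A copy in *Ifih1* at 269 bases was passed over for the same reason.

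Irf3: gaggacatGGACTtccaggcc

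Tbk1: cgcaatgtGGACTgtctttag

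Ddx58: aagtggaaGGACTttcatttt

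Mavs: ttctctgtGGACTcttaagaa

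Ifih1: agatactaGGACTgacagctt

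Cgas: ccaaagaaGGACTacctattc

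The *Irf3* window (chr7:45002311-45002331, plus strand) lies in the coding sequence, 27 bases before the end of the stop codon. The *Tbk1* window (chr10:121547137-121547157, minus strand) is also coding, 12 bases before that end. The *Ddx58* window (chr4:40205849-40205869, minus strand) is coding, 51 bases before it. The *Mavs* window (chr2:131247359-131247379, plus strand) lies 578 bases after the stop codon, whereas those of *Ifih1* (chr2:62610497-62610517, minus strand) and *Cgas* (chr9:78435534-78435554, minus strand) are coding and lie 1619 and 551 bases before it. *Irf3* held 5 copies, or 2.46 per kb of transcript, the highest density among the members. *Tbk1* held 1.32 copies per kb, *Ddx58* 1.29, *Mavs* 0.981, *Tmem173* 0.870, *Ifih1* 0.548, *Zbp1* 0.503 and *Cgas* 0.247, and *Irf7* held none. Over 13032 protein-coding genes tested in Ctrl, the median was 1.06 copies per kb and 91.3% of transcripts held the motif. A copy of these letters is not a methylated site, and none was measured in these libraries.

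Levels were compared between members per kb of exon. In the Ctrl Inputs *Tmem173* stood highest at 24.1 ± 0.839 CPM per kb (SD, n = 3), followed by *Tbk1* at 21.7 ± 1.03, *Irf3* at 13.9 ± 0.368, *Mavs* at 7.70 ± 0.246, *Cgas* at 7.31 ± 0.472, *Zbp1* at 6.44 ± 0.205, *Ddx58* at 4.03 ± 0.172, *Irf7* at 2.59 ± 0.0646 and *Ifih1* at 1.50 ± 0.129. The libraries of *Mavs* and *Cgas* overlapped on this scale, and no other neighbours in the order did. Transcripts of the adaptor STING, the shared kinase and IRF3 were thus more abundant in these cells than those of both RNA sensors. With the length of the longest transcript in place of all exons, *Ddx58* (7.33 ± 0.312) passed above *Zbp1* (6.84 ± 0.217), with overlapping libraries, and *Tmem173* and *Tbk1* also overlapped. In the IR Inputs *Zbp1* (7.57 ± 0.235 CPM per kb) stood above *Cgas* (5.50 ± 0.334) and overlapped *Mavs* (7.72 ± 0.194). In the Ctrl IPs the order was led by *Tmem173* (21.8 ± 0.346) and *Irf3* (17.3 ± 1.47), and *Tbk1* came after them at 7.79 ± 0.605 CPM per kb. With the longest transcript, *Irf3* (29.4 ± 2.49) stood above *Tmem173* (25.9 ± 0.412) there, without overlap. The annotated exons of *Irf7* join into 1 block of 3776 bases that covers the whole gene, so reads from its unspliced RNA are counted too.

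**Figure D1:**
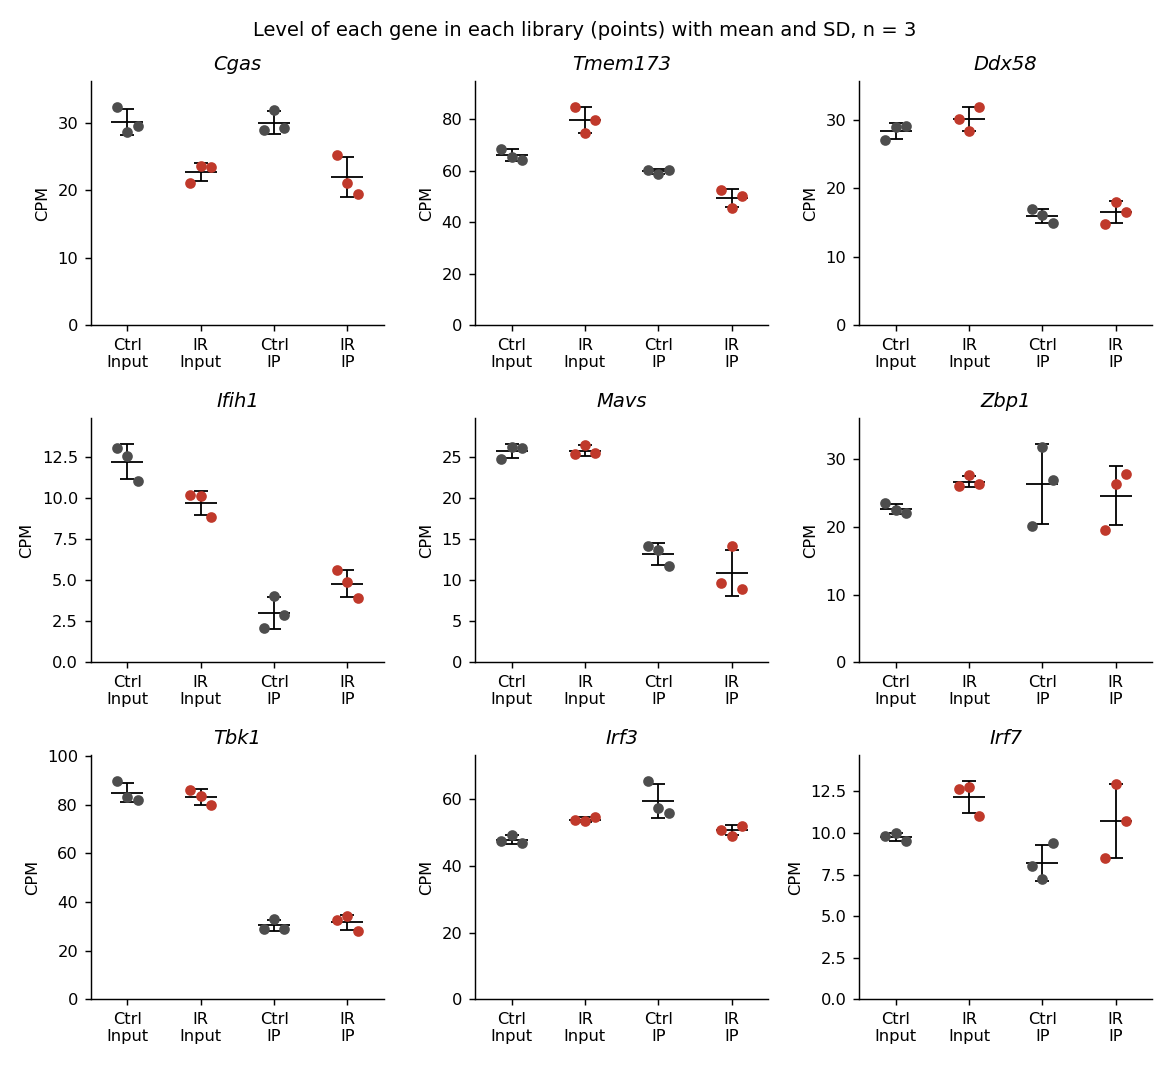
Level (CPM, linear axis from 0) of 9 nucleic acid sensing genes in every library, with Ctrl libraries in grey and IR libraries in red, and the mean and SD of each group (n = 3) as bars. For *Tbk1* all IPs (28.0 to 34.3 CPM) sit below all Inputs (79.8 to 89.5 CPM), and for *Cgas* the IR libraries (19.5 to 25.2 CPM) sit below the Ctrl libraries (28.6 to 32.3 CPM) in both fractions.

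IP was compared with Input in each condition to see which transcripts were recovered with YTHDF2. In Ctrl, *Irf3* was the only member tested that was higher in IP, while *Ifih1*, *Tbk1*, *Mavs* and *Ddx58* were lower, so that 1 of 9 was higher and 4 of 9 were lower. Over all 17416 genes tested, 34.1% were higher and 34.6% lower. In IR, 5 members were lower (*Tbk1*, *Mavs*, *Ifih1*, *Ddx58* and *Tmem173*) and 0 were higher, where 30.4% of all genes were lower and 32.1% higher. The count of 0 from edgeR's quasi-likelihood test was also 0 at an unadjusted p under 0.05 and 0 with DESeq2. Both RNA sensors, their adaptor and the kinase were thus below the Input in both conditions, at 0.259-fold to 0.594-fold in Ctrl. The change of IP over Input with IR was tested as the interaction over all 12 libraries. It was higher for *Ifih1* and lower for *Tmem173* and *Irf3*, which is 1 higher and 2 lower of 9, against 6.28% higher and 13.9% lower of all genes. The median change over the 9 members was -0.042 on the log2 scale, and that over all genes tested was -0.083.

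**Figure D2:**
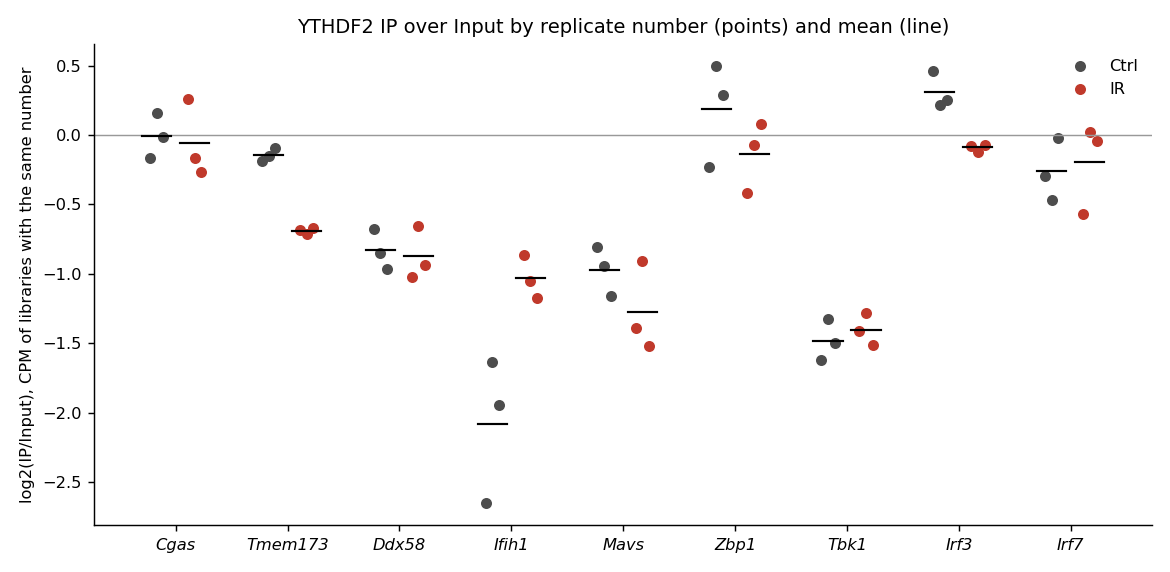
log2(IP/Input) from the CPM of the IP and Input libraries with the same replicate number, for Ctrl (grey) and IR (red), with the mean of 3 ratios as a line. The Ctrl and IR ratios do not overlap for *Tmem173*, *Irf3* and *Ifih1*, with *Irf3* above 0 at 3 Ctrl numbers and at 0 IR numbers.

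The Inputs of both conditions were compared for transcript abundance. *Tmem173* was higher in IR, and *Cgas* and *Ifih1* were lower, so 1 of 9 members was higher and 2 were lower, against 21.0% higher and 23.9% lower of all genes. Since these are bulk samples, fewer cells of a type and less RNA per cell cannot be told apart. The summed level of 6 neutrophil markers was 6130 to 6841 CPM in the Ctrl Inputs and 8569 to 9283 CPM in the IR Inputs, with 4 of the 6 called higher in IR. Markers of plasmacytoid dendritic cells, known for high interferon output, summed to 99.7 to 107.9 CPM in the Ctrl Inputs and 94.9 to 96.1 CPM in the IR Inputs. Of 5 tested, 3 were lower in IR and 1 was higher. *Siglech* was at 17.6 ± 1.82 CPM in the Ctrl Inputs and 5.14 ± 0.496 CPM in the IR Inputs (SD, n = 3), and *Ccr9* at 5.06 ± 0.754 and 1.06 ± 0.526. *Cox6a2*, at low levels, had 0.826 ± 0.147 and 0.307 ± 0.145 CPM. *Tcf4* was at 46.0 ± 2.91 and 44.4 ± 0.101, and *Bst2* at 34.2 ± 0.969 and 44.5 ± 0.568. *Klk1* had at most 3 counts in every library. The part of these shifts in the changes of the members was not tested. In the IPs alone, 1 member, *Cgas*, was lower in IR and 0 were higher, against 9.85% lower and 6.12% higher of all genes. The count of 0 was the same at an unadjusted p under 0.05 and with DESeq2.

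**Figure D3:**
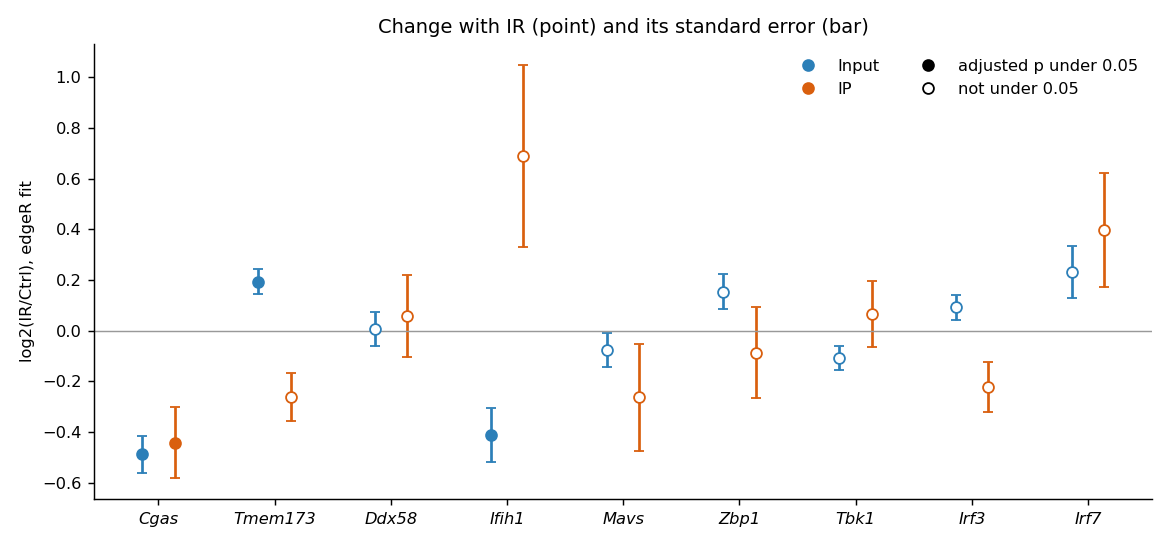
log2(IR/Ctrl) of each member from edgeR's fit in the Inputs (blue) and in the IPs (orange), with its standard error as a bar; filled points have an adjusted p under 0.05. *Tmem173* (0.19) is the filled point above 0, and *Cgas* (-0.49 in Input and -0.44 in IP) and *Ifih1* (-0.41 in Input) are the filled points below 0.

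*Cgas* (ENSMUSG00000032344.17, chr9:78430526-78443237, minus strand) makes cGAMP on binding DNA. Its level in replicates 1, 2 and 3, the order used for all values that follow, was 32.3, 28.6 and 29.5 CPM in the Ctrl Inputs and 21.1, 23.6 and 23.4 CPM in the IR Inputs. In the IPs it was 28.9, 32.0 and 29.3 CPM in Ctrl and 25.2, 21.1 and 19.5 CPM in IR. Every IR library was below every Ctrl library in both fractions, and IP and Input of a condition overlapped. The fall in the Input was 0.713-fold (log2 change -0.49, standard error or SE 0.072, adjusted p = 3.18e-06 by edgeR's quasi-likelihood test, with p-values adjusted over all genes by the Benjamini-Hochberg method here and in what follows). Log2 changes were fitted with scaling factors of the libraries compared, so they can differ a little from ratios of the CPM values. In the IP the change was -0.44 (SE 0.14, adjusted p = 0.0424), and it was no longer past the threshold with scaling by library size only (-0.23, adjusted p = 0.288). The same held with at least 10 counts required in every library (adjusted p = 0.0586), and in 5 of the 6 fits that left out an IP library (log2 change -0.35 to -0.46, adjusted p = 0.0937 to 0.175; Ctrl IP 1, 2 and 3 and IR IP 2 and 3). IP over Input was 0.07 on the log2 scale in Ctrl (SE 0.088, adjusted p = 0.488) and 0.01 in IR (SE 0.13, adjusted p = 0.964), so no difference between IP and Input was detectable.

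Among other DNA sensors, *Aim2*, which senses DNA and builds an inflammasome, was at 67.6 to 75.5 CPM in the Ctrl Inputs and 99.0 to 103.2 CPM in the IR Inputs, without overlap. It rose by 0.44 in the Input (SE 0.044, adjusted p = 5.12e-09) and was above Input in the IP of both conditions, by 1.17 in Ctrl and 0.34 in IR on the log2 scale. *Ifi204*, a mouse relative of the DNA sensor IFI16, was lower in IP in Ctrl (-1.24) and in IR (-1.42), and its Input change was 0.08 (adjusted p = 0.616). The PYHIN genes, to which *Aim2*, *Ifi204* and *Mndal* belong, include near-identical copies, so that the split of reads among them is uncertain.

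*Ddx58* (ENSMUSG00000040296.15, chr4:40203773-40239828, minus strand) encodes RIG-I, which binds short double-stranded RNA with a 5′ triphosphate. It was at 27.0, 29.0 and 29.2 CPM in the Ctrl Inputs and at 30.1, 28.4 and 31.9 CPM in the IR Inputs. The IPs held 16.9, 16.1 and 15.0 CPM in Ctrl and 14.8, 18.1 and 16.6 CPM in IR. All IPs were below all Inputs, and Ctrl and IR overlapped in each fraction. IP over Input was -0.75 in Ctrl (SE 0.097, adjusted p = 2.21e-06) and -0.81 in IR (SE 0.12, adjusted p = 1.63e-04). The change between conditions was -0.04 (SE 0.15, adjusted p = 0.914), and the change with IR was 0.01 in the Input (SE 0.066, adjusted p = 0.946) and 0.06 in the IP (SE 0.16, adjusted p = 0.862).

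*Ifih1* (ENSMUSG00000026896.14, chr2:62595798-62646255, minus strand) encodes MDA5, which binds long double-stranded RNA, and was the member tested with the lowest level per kb of exon in the Ctrl Inputs. It was at 13.1, 12.6 and 11.1 CPM in the Ctrl Inputs and at 10.2, 10.1 and 8.87 CPM in the IR Inputs. The Ctrl IPs held 2.08, 4.06 and 2.87 CPM (65, 130 and 77 counts) and the IR IPs 5.60, 4.88 and 3.94 CPM (182, 162 and 118 counts). Inputs were lower in IR without overlap, while in the IPs the highest Ctrl library lay above the lowest IR library. The Input fell by 0.41 on the log2 scale (SE 0.11, adjusted p = 0.00224), a call lost with all 12 libraries in one fit (-0.36, adjusted p = 0.257). The IP change was 0.69 (SE 0.36, adjusted p = 0.223), and past the threshold with all 12 libraries in one fit (0.68, adjusted p = 0.0321).

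*Ifih1* was the member furthest below its Input in Ctrl, at 0.259-fold (log2 -1.95, SE 0.21, adjusted p = 2.73e-07), and was at 0.515-fold in IR (-0.96, SE 0.21, adjusted p = 0.00236). Ratios of libraries with the same number, which the sources do not tie to the same lysate, were -2.65, -1.64 and -1.95 in Ctrl and -0.86, -1.05 and -1.17 in IR, and the lowest IR ratio lay above the highest Ctrl ratio. The difference was 1.01 (SE 0.31, adjusted p = 0.0247). It stayed between 0.95 and 0.99, with adjusted p = 0.0618 to 0.0705, when Ctrl Input 1, Ctrl Input 2 or IR Input 3 was left out. Its paralog *Dhx58* (LGP2), which lacks the signalling domains of the other RIG-I-like receptors, had an IP over Input of -0.16 in Ctrl (adjusted p = 0.389) and was lower in IP in IR (-0.54, adjusted p = 0.0237). That call was lost with library size only, with protein-coding nuclear genes, with 10 counts in every library, and without IR Input 2 or 3 or IR IP 2 or 3 (-0.36 to -0.58, adjusted p = 0.0531 to 0.116), and without Ctrl IP 2 the Ctrl value was called too (-0.33, adjusted p = 0.0463). The Input change of *Dhx58* was 0.23 (SE 0.10, adjusted p = 0.0676), and called higher with protein-coding nuclear genes (0.24, adjusted p = 0.0465) and without IR Input 1 (0.30, adjusted p = 0.0232).

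*Zbp1* (ENSMUSG00000027514.14, chr2:173206612-173218923, minus strand) binds Z-form nucleic acids and passes the signal to cell death kinases. Its Inputs were at 23.5, 22.5 and 22.1 CPM in Ctrl and at 26.1, 27.7 and 26.3 CPM in IR, without overlap. Its IPs were spread more widely, with 20.1, 31.9 and 27.0 CPM in Ctrl and 19.6, 26.4 and 27.8 CPM in IR, and both overlapped the Inputs. The Input change of 0.15 (SE 0.070) was not past the threshold (adjusted p = 0.0732), except with protein-coding nuclear genes only (0.16, adjusted p = 0.0493). IP over Input in Ctrl was 0.29 (SE 0.13, adjusted p = 0.0601), and -0.23, 0.50 and 0.29 by number. Without Ctrl IP 1 it was 0.49 (adjusted p = 3.25e-04), and DESeq2 also called it higher (0.31, adjusted p = 0.0432). In IR it was -0.06 (SE 0.14, adjusted p = 0.713), and the change between conditions was -0.33 (SE 0.21, adjusted p = 0.310). *Ripk3*, the kinase that ZBP1 engages, was lower in IP in Ctrl (-0.86, adjusted p = 2.61e-07) and in IR (-0.76, adjusted p = 5.71e-04), and its Input change was 0.08 (adjusted p = 0.296). For *Mlkl*, which permeates the membrane in necroptosis, IP over Input was -0.10 in Ctrl (adjusted p = 0.466), or -0.29 with library size only (adjusted p = 0.0466), and -0.19 in IR (adjusted p = 0.315), and the Input change was -0.14 (adjusted p = 0.217).

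*Tmem173* (ENSMUSG00000024349.9, minus strand of chromosome 18) encodes STING, the receptor of cGAMP on the endoplasmic reticulum. It was at 68.5, 65.1 and 64.2 CPM in the Ctrl Inputs and at 84.6, 74.5 and 79.5 CPM in the IR Inputs. The IPs held 60.1, 58.5 and 60.3 CPM in Ctrl and 52.6, 45.5 and 49.9 CPM in IR. Inputs were higher and IPs lower in IR, without overlap in either fraction. The Input rose 1.14-fold (log2 0.19, SE 0.049, adjusted p = 0.00201). The IP change was -0.26 (SE 0.096, adjusted p = 0.0774) and past the threshold with all 12 libraries in one fit (-0.27, adjusted p = 0.0107).

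IP over Input of *Tmem173* was -0.07 in Ctrl (SE 0.061, adjusted p = 0.330) and -0.63 in IR (SE 0.084, adjusted p = 6.49e-05). By number it was -0.19, -0.15 and -0.09 in Ctrl and -0.69, -0.71 and -0.67 in IR. Since the numbers are not tied to lysates, the spread of these ratios is no measure of reproducibility. The difference was -0.54 (SE 0.10, adjusted p = 6.19e-04), or 0.687-fold, the lowest of the members. It depended on the scaling: with library size only it was -0.23 (adjusted p = 0.144), where the median change of all genes moved by 0.31. Relative to the median of all genes it was -0.46 under both scalings. That match follows from the scaling, which moves nearly all genes alike, and is no support for the call. The Ctrl value was called lower with library size only (-0.25, adjusted p = 0.00139) and without a filter on low counts (-0.18, adjusted p = 0.0241), and was 0.03 with protein-coding nuclear genes only.

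*Mavs* (ENSMUSG00000037523.13, chr2:131234063-131248025, plus strand) encodes the adaptor on which RIG-I and MDA5 converge. It was at 24.8, 26.3 and 26.2 CPM in the Ctrl Inputs and at 25.4, 26.6 and 25.5 CPM in the IR Inputs. The IPs held 14.2, 13.7 and 11.7 CPM in Ctrl and 9.69, 14.1 and 8.91 CPM in IR, where replicate 2 stood above the other two. All IPs were below all Inputs, and the conditions overlapped. The log2 difference of IP from Input was -0.89 in Ctrl (SE 0.11, adjusted p = 1.01e-06) and -1.18 in IR (SE 0.17, adjusted p = 1.45e-04). Their difference was -0.27 (SE 0.21, adjusted p = 0.415), and -0.49 without IR IP 2 (adjusted p = 0.0361). The change with IR was -0.08 in the Input (SE 0.067, adjusted p = 0.383) and -0.26 in the IP (SE 0.21, adjusted p = 0.466).

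*Tbk1* (ENSMUSG00000020115.3, chr10:121546455-121586787, minus strand) encodes the kinase shared by both routes. It was at 89.5, 83.3 and 82.0 CPM in the Ctrl Inputs and at 86.2, 83.7 and 79.8 CPM in the IR Inputs. The IPs held 29.1, 33.2 and 29.1 CPM in Ctrl and 32.4, 34.3 and 28.0 CPM in IR. Thus the 6 IPs lay far below the 6 Inputs, and Ctrl and IR overlapped in each fraction. IP over Input was -1.40 in Ctrl (0.378-fold, SE 0.074, adjusted p = 1.41e-11) and -1.34 in IR (0.395-fold, SE 0.091, adjusted p = 2.70e-07). The difference between conditions was 0.09 (SE 0.12, adjusted p = 0.694), and was called higher with library size only (0.40, adjusted p = 0.0272). The Input change was -0.11 (SE 0.046, adjusted p = 0.0572), and called lower with library size only, with a stricter filter, and without Ctrl Input 3 or IR Input 1 (-0.11 to -0.14, adjusted p = 0.0227 to 0.0382). In the IP it was 0.07 (SE 0.13, adjusted p = 0.795).

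The partners of TBK1 differed among themselves. *Tank*, a scaffold that TBK1 binds, was lower in IP in Ctrl (0.366-fold, adjusted p = 1.14e-10) and in IR (0.499-fold, adjusted p = 8.34e-05), and it fell in the Input (log2 -0.46, adjusted p = 1.04e-07). *Traf3*, the ubiquitin ligase between MAVS and the kinases, fell in the Input as well (-0.52, SE 0.048, adjusted p = 1.10e-09), from 62.1 to 66.5 CPM in Ctrl to 45.7 to 48.5 CPM in IR. Its IP over Input was -0.35 in Ctrl (adjusted p = 1.38e-04) and 0.07 in IR (adjusted p = 0.664), or 0.32 in IR without IR IP 1 (adjusted p = 0.00535). *Ikbke*, the related kinase IKK epsilon, stood at 139.1 to 150.6 CPM in the Ctrl Inputs and was less far below its Input in the IP than *Tbk1*, at -0.12 in Ctrl (adjusted p = 0.0326) and -0.37 in IR (adjusted p = 5.05e-04). The Ctrl call was lost with DESeq2 or its size factors, with protein-coding nuclear genes, with the stricter filter, and without Ctrl Input 2 or any of the Ctrl IPs (-0.03 to -0.12, adjusted p = 0.0709 to 0.629). Its Input change was -0.01 (SE 0.038, adjusted p = 0.865).

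*Irf3* (ENSMUSG00000003184.15, chr7:44997648-45002848, plus strand) is the transcription factor that TBK1 phosphorylates to induce interferon beta. It was at 47.5, 49.4 and 47.0 CPM in the Ctrl Inputs and at 53.7, 53.4 and 54.8 CPM in the IR Inputs. The IPs held 65.4, 57.5 and 56.0 CPM in Ctrl and 50.9, 49.1 and 52.2 CPM in IR. The IPs were above the Inputs in Ctrl and below them in IR, without overlap of the CPM values in either condition. Relative to Input the IP was at 0.39 in Ctrl (1.31-fold, SE 0.072, adjusted p = 1.15e-04) and -0.03 in IR (SE 0.075, adjusted p = 0.726). The value in IR was above 0, at 0.02 to 0.12, with DESeq2, with 4 other scalings or filters, and without any of the IR IPs (adjusted p = 0.188 to 0.879).

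The difference for *Irf3* was -0.40 (SE 0.10, adjusted p = 0.00901), with ratios by number of 0.46, 0.22 and 0.25 in Ctrl and -0.08, -0.12 and -0.07 in IR. Without Ctrl IP 1, the highest of its libraries, it was -0.27 (adjusted p = 0.0765), and with library size only it was -0.09 (adjusted p = 0.647). Relative to the median of all genes it was -0.32 under both scalings, which again follows from the shift shared by all genes and is no support for the call. The Input change was 0.09 (SE 0.049, adjusted p = 0.134), and the IP change was -0.22 (SE 0.098, adjusted p = 0.144), past the threshold with all 12 libraries in one fit (-0.23, adjusted p = 0.0288).

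*Irf7* (ENSMUSG00000025498.15, chr7:141262706-141266481, minus strand) is induced by interferon and widens the response to interferon alpha genes. It was at 9.83, 9.99 and 9.51 CPM in the Ctrl Inputs and at 12.6, 12.7 and 11.0 CPM in the IR Inputs, without overlap. The IPs held 8.03, 7.24 and 9.38 CPM in Ctrl and 8.52, 12.9 and 10.7 CPM in IR. The Input change was 0.23 (SE 0.10, adjusted p = 0.0670), past the threshold without IR Input 3 (0.30, adjusted p = 0.0348), and the IP change was 0.40 (SE 0.23, adjusted p = 0.273). IP over Input was -0.18 in Ctrl (SE 0.15, adjusted p = 0.309), called lower with library size only (-0.36, adjusted p = 0.0421), and -0.12 in IR (SE 0.19, adjusted p = 0.589). Their difference was 0.08 (SE 0.24, adjusted p = 0.880).

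Downstream of these factors, *Ifnb1* had at most 4 counts in any library and *Ifna4* had 0 counts in all of them. *Ifna2* had 0 counts in every library but the IR IPs, where it ranged from 0 to 38. Of the 7 tested genes of the type I interferon receptor pathway, 6 were higher and 0 lower in the IR Inputs. Among all genes 21.0% were higher and 23.9% lower there. The counts for the 7 genes were 4 and 0 by DESeq2 and 6 and 0 at an unadjusted p under 0.05. In the IPs 0 of the 7 were higher and 2 lower in IR, against 6.12% higher and 9.85% lower of all genes. These counts were 0 and 2 by DESeq2 and 1 and 2 at an unadjusted p under 0.05. The median change of the 7 genes in the Input was 0.13, against 0.01 over all genes. *Irf9* and *Stat2* encode transcription factors that act downstream of the interferon receptor. *Irf9* rose by 0.32 (SE 0.052, adjusted p = 1.09e-05), from 42.4 to 45.5 CPM in Ctrl to 55.8 to 61.4 CPM in IR. *Stat2* rose by 0.26 (SE 0.042, adjusted p = 1.22e-05). In IP over Input, *Irf9* was at -0.73 in Ctrl and -1.07 in IR, and *Stat2* at -0.19 and -0.69, all past the threshold. The Ctrl call of *Stat2* was lost with protein-coding nuclear genes only (-0.09, adjusted p = 0.140) and without Ctrl IP 2 (-0.13, adjusted p = 0.0608).

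Beside the 10 genes, 83 others of the pathway were examined, of which 80 were tested for IP over Input and 79 in the Input. In Ctrl 28 were higher and 39 lower in IP, and in IR 19 were higher and 41 lower, against the shares of all genes given above. The lists differed among themselves. Of 12 kinase complex and adaptor genes, 3 were higher and 9 lower in Ctrl, and 3 higher and 8 lower in IR. Of 7 genes of cGAMP transport and hydrolysis, 4 were higher and 2 lower in Ctrl, and 4 higher and 1 lower in IR. Among the higher genes was *Lrrc8e*, with 0 to 2 counts in the Ctrl Inputs and 20 to 66 in the Ctrl IPs. In IR its Inputs held 2 to 3 counts and its IPs 37 to 145. It passed the filter through its IPs alone, so it could only be called higher. Of the exon bases of *Lrrc8a*, also among the higher genes, 66.2% are shared with another gene on its strand. Of 8 genes of DNA sensors and cofactors, 4 were higher and 3 lower in Ctrl, and 1 higher and 4 lower in IR. Among all genes 34.1% were higher and 34.6% lower in Ctrl, and 32.1% higher and 30.4% lower in IR. IP over Input was higher in IR at 5 of the 80 genes and lower at 22. With library size only these counts were 18 and 6, and over all 20720 genes they went from 1301 higher and 2881 lower to 2862 and 877, so the scaling turned this split for genes at large. In the Input 20 rose and 20 fell, and in the IP 2 rose and 15 fell, or 14 and 6 with library size only, where all genes went from 1179 and 1896 to 2665 and 828.

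**Figure D4:**
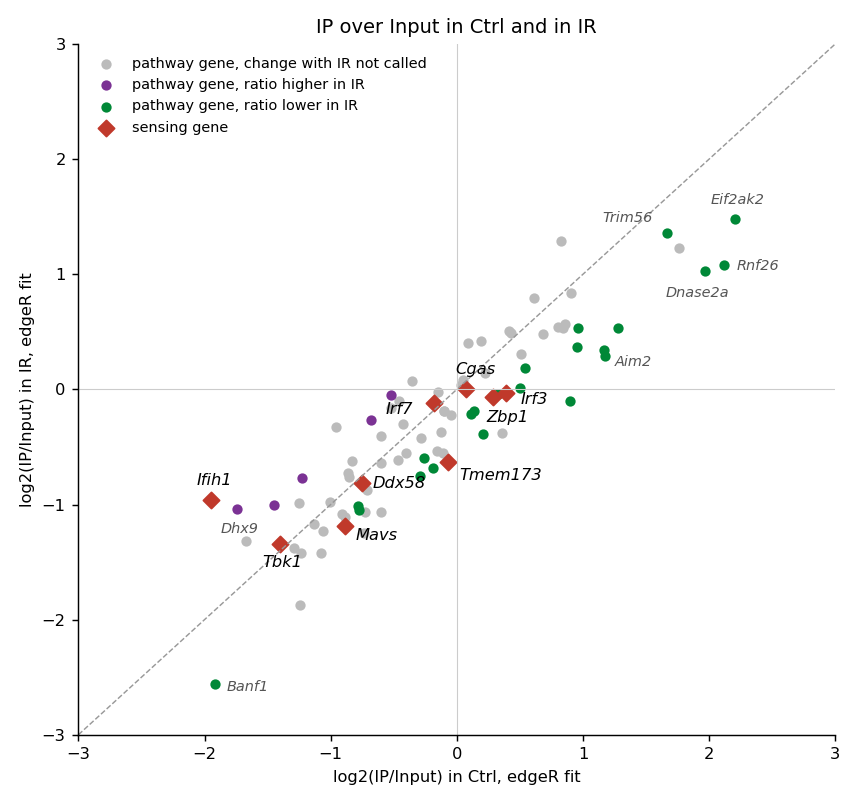
log2(IP/Input) from edgeR's fits in Ctrl (horizontal) and in IR (vertical) for the 9 members (diamonds) and 79 of the 80 pathway genes tested, coloured by the test of the change with IR; the dashed line marks equal values and *Lrrc8e* lies outside the axis range of -3 to 3. *Irf3* (0.39 and -0.03) and *Tmem173* (-0.07 and -0.63) lie below the line and *Ifih1* (-1.95 and -0.96) above it.

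Among pathway genes past the threshold with no overlap of the groups and an average of 100 counts or more per library, those furthest above the Input in Ctrl were *Eif2ak2* (2.21, SE 0.049, adjusted p = 1.01e-16), *Rnf26* (2.12, SE 0.095) and *Dnase2a* (1.97, SE 0.047). *Eif2ak2* encodes PKR, the RNA-activated kinase that halts translation, and went from 53.6 to 57.6 CPM in the Ctrl Inputs to 242.7 to 252.1 CPM in the Ctrl IPs. RNF26 is a ubiquitin ligase of STING, and *Dnase2a* encodes the DNase of lysosomes. Of the exon bases of *Rnf26*, 56.6% are shared with another gene on its strand. Furthest below were *Banf1* (-1.91), whose product coats DNA, *Dhx9* (-1.74), a helicase, and *Rnaseh2c* (-1.67), a subunit of RNase H2. *Ifih1*, at -1.95, lay below all of these, and the other members lay between *Rnaseh2c* and *Dnase2a*. In IR the highest were *Eif2ak2* (1.48), *Trim56* (1.36), a ubiquitin ligase that acts on cGAS and STING, and *Oasl1* (1.29), a repressor of IRF7 synthesis. The lowest were *Banf1* (-2.56), *Rnf5* (-1.88), which marks STING for degradation, and *Pnpt1* (-1.42), which degrades RNA in mitochondria. *Samhd1*, which like *Trex1* limits cytosolic DNA but by depleting the nucleotides for its synthesis, was at 478.0 to 487.9 CPM in the Ctrl Inputs, was higher in IP in Ctrl (0.32, adjusted p = 1.95e-07), had -0.04 in IR (adjusted p = 0.418; called higher with library size only, 0.11, adjusted p = 0.0323, and lower with no filter, -0.18, adjusted p = 0.00618), and rose by 0.10 in the Input (adjusted p = 0.00376).

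Under the same rule, the largest changes of IP over Input with IR were rises at *Dhx9* (0.72, SE 0.14, adjusted p = 9.39e-04), *Cyld* (0.49), a deubiquitinase, and *Ddx3x* (0.49), a helicase that aids TBK1 signalling. Falls were largest at *Rnf26* (-1.02, SE 0.17, adjusted p = 2.34e-04), *Mndal* (-0.98) and *Dnase2a* (-0.92). *Dhx9* and *Ddx3x* also had the largest falls in the Input beside *Slc19a1*, at -0.83, -0.67 and -1.48. Their IP levels did not rise in the mean, and Ctrl and IR overlapped. *Dhx9* was at 19.2 ± 0.603 CPM in the Ctrl IPs and 18.8 ± 2.67 CPM in the IR IPs, and *Ddx3x* at 61.1 ± 1.76 and 56.8 ± 8.40. *Slc19a1*, a folate carrier that also imports cGAMP, went from 4.60 to 6.07 CPM in the Ctrl Inputs to 1.65 to 2.45 CPM in the IR Inputs. The largest rises in the Input were at *Aim2* (0.44), *Oas1a* (0.43), an oligoadenylate synthetase, and *Irf9* (0.32). The call of *Oas1a* was lost with all 12 libraries in one fit (0.48, adjusted p = 0.278) and without IR Input 1 (0.34, adjusted p = 0.0507). In the IP the largest rises were at *Tbkbp1* (0.50), an adaptor of TBK1, and *Cyld* (0.42), and the largest falls at *Rnf26* (-1.31), *G3bp1* (-0.80) and *Zcchc3* (-0.74). The IP call of *Zcchc3* was lost with library size only and without Ctrl IP 1 or 3 or IR IP 1 or 3 (-0.53 to -0.73, adjusted p = 0.0538 to 0.139), and that of *Cyld* without Ctrl IP 1 or 3 (0.42 and 0.38, adjusted p = 0.0577 and 0.0757). G3BP1 and ZCCHC3 are cofactors of cGAS.

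Likeness of expression was measured as the root mean square distance between log2 CPM profiles over the 12 libraries, each centred on its own mean, among 11727 genes that averaged 100 counts or more. Nearest to *Tmem173* were *Ccdc12* (distance 0.034), *Aup1* (0.044) and *Rogdi* (0.070). Nearest to *Irf3* were *Vps16* (0.050), *Stk19* (0.058) and *Sars* (0.062). Nearest to *Ifih1* were *Ppfibp1* (0.16), *Itgav* (0.16) and *Sec23ip* (0.18), further off than the nearest gene of any other member tested. Its IPs held 65 to 182 counts, and the part of low counts in its distances was not tested. The nearest gene was *Trappc11* for *Tbk1* (0.066), *Triobp* for *Ddx58* (0.055), *Tcf19* for *Mavs* (0.090), *Def8* for *Cgas* (0.080), *Trim30d* for *Irf7* (0.085) and *Rilpl2* for *Zbp1* (0.12). For no member was the nearest gene another member, which among so many genes compared is no measure of how alike the members are.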

How the data were processed

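Per the labels and the methods, the authors trimmed reads with Trimmomatic 0.39, aligned them to mm10 with HISAT and GENCODE M19, and deposited whole-number HTSeq counts per gene for the 12 libraries, without normalization. HTSeq's mode and strand option and the treatment of duplicate reads are not given in the sources used here. Symbols, exons and transcripts came from GENCODE M21 (99.9% of identifiers matched). Levels are TMM-scaled CPM, with factors from all libraries.

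A gene entered a comparison with 10 counts or more in 3 or more of its libraries. Tests used edgeR 4.0.16 (quasi-likelihood test, R 4.3.3) over all genes, with Benjamini-Hochberg adjustment and a threshold of 0.05. Standard errors are the absolute log2 change divided by the square root of F. DESeq2 1.42.0, the study's tool, was an alternative. On simulated counts 69% to 100% of 2-fold changes were recovered without the replicate block (69% for IR against Ctrl in the IPs), and at most 4.42% of calls were false. Changes were planted only in genes averaging 100 counts or more, with the typical spread of genes at their level. All other genes were drawn from the same mean in every group, and as many rises as falls were planted. In the data, 34.1% of genes were called higher and 34.6% lower in IP over Input in Ctrl. These shares of recovered and false calls therefore do not describe changes under 2-fold, genes with fewer counts, or errors that come from the scaling.

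Members and lists were chosen with earlier results of these data known. Named were all members, their partners and paralogs, per comparison and direction the 3 pathway genes with the largest change past the threshold (no overlap, averaging 100 counts or more), and the 3 most alike genes. A partner gene that this rule names is not reported here. Per the methods, part of each lysate was kept as Input and the rest went to the IP, but replicate numbers are not tied to lysates, so numbers were not taken to pair libraries.

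Other alternatives were DESeq2 size factors, library size only, no filter or 10 counts in every library, all 12 libraries in one fit, protein-coding nuclear genes, 2-fold changes, the replicate block, longest transcript length, and each library left out.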

Additional observations from a re-analysis of the deposited data

Results flagged for a closer look

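Results are given here where the change of IP over Input with IR passed the threshold in the interaction of edgeR over all 12 libraries, so that the 2 conditions differed by a test of the difference itself. Among the members these were *Ifih1* (1.01), *Tmem173* (-0.54) and *Irf3* (-0.40). Among the named pathway genes they were *Dhx9* (0.72), *Cyld* (0.49), *Ddx3x* (0.49), *Tank* (0.47), *Tbkbp1* (0.43), *Rnf26* (-1.02), *Mndal* (-0.98), *Dnase2a* (-0.92), *Zcchc3* (-0.86), *Aim2* (-0.80), *Eif2ak2* (-0.71), *Banf1* (-0.62), *Stat2* (-0.48), *Samhd1* (-0.34), *G3bp1* (-0.30) and *Trim56* (-0.29). *Tank* (adjusted p = 0.0491) was not past the threshold when any of the 3 Ctrl Inputs, the 3 IR Inputs, Ctrl IP 2 or 3, or IR IP 2 was left out (0.37 to 0.52, adjusted p = 0.0535 to 0.119). With library size only, *Samhd1* (-0.03), *Stat2* (-0.16), *Banf1* (-0.31), *Zcchc3* (-0.55), *G3bp1* (0.0072) and *Trim56* (0.023) were not past it either. *Banf1* also lost its call in 10 of 12 fits with a library left out (adjusted p = 0.0613 to 0.123), *Zcchc3* in 7 (0.050 to 0.104) and *Trim56* in 3 (0.0532 to 0.106). With protein-coding nuclear genes only or 10 counts in every library, *Banf1* (-0.54 and -0.51) and *Trim56* (-0.21 and -0.18) were not called, nor was *Banf1* with DESeq2 size factors (-0.56). Among the members, *Tmem173* (-0.23, adjusted p = 0.144) and *Irf3* (-0.09, adjusted p = 0.647) lost their calls with library size only. *Irf3* also lost its call without Ctrl IP 1 (adjusted p = 0.0765). That of *Ifih1* was lost without Ctrl Input 1, Ctrl Input 2 or IR Input 3 (adjusted p = 0.0618 to 0.0705). The causes were not tested.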

How the results depend on the processing

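Of 1850 alternative values of single genes, 1628 kept their direction and side of the threshold, 130 lost and 27 gained a call, and 65 changed sign, each of a gene not called with TMM and edgeR apart from the change with IR of *G3bp1* (0.0072) and *Trim56* (0.023) with library size only. The causes were not tested unless stated.

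Counts of members and of pathway genes moved as follows. With changes of at least 2-fold required, which is a stricter call, IP over Input in Ctrl had 0 members higher and 2 lower (pathway 9 and 13), IP over Input in IR 2 members lower (pathway 7 higher and 17 lower), and its change with IR 0 members lower (pathway 0 higher and 1 lower). In the Input 0 members were then higher and 0 lower (pathway 0 and 1), and in the IP 0 members lower (pathway 0 higher and 1 lower). At this stricter call, all genes gave 3625 higher and 3232 lower of 17416 for IP over Input in Ctrl. In IR they gave 4102 and 3104 of 18650, and for the change with IR 589 and 270 of 20720. The Input had 344 and 674 of 16914 genes, and the IP 571 and 135 of 19255. With library size only, the change of IP over Input had 2 members higher and 0 lower (pathway 18 and 6), and the IP 0 members lower (pathway 14 higher and 6 lower). This scaling moved the median of all genes by 0.31 for that change, 0.20 in the IP, -0.18 for IP over Input in Ctrl and 0.15 in IR. With all 12 libraries in a single fit, which shares the spread of the IPs with the Inputs, the Input had 1 member lower (pathway 13 higher and 8 lower) and the IP 1 member higher and 3 lower (pathway 8 and 24). Over all genes the single fit gave 2316 higher and 1771 lower in the Input, and 2121 and 2920 in the IP. With DESeq2 size factors, 2 members were higher in IP in Ctrl and 8 pathway genes were higher in the change with IR. DESeq2 itself gave 2 and 9, and 4 pathway genes higher in the IP. Protein-coding nuclear genes gave 2 members, 9 and 4 likewise, and 2 members higher in the Input. At least 10 counts in every library gave 2 members higher in IP in Ctrl, 9 higher and 14 lower pathway genes in the change with IR, and in the IP 0 members lower and 6 pathway genes higher.

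With a library left out in turn, 1 to 2 members were higher in IP in Ctrl, 0 to 1 higher and 1 to 3 lower in the change with IR (pathway 4 to 8 higher, 13 to 25 lower), 1 to 2 higher in the Input, and 0 to 1 lower in the IP (pathway 1 to 3 higher, 8 to 15 lower). Replicate numbers were not shown to pair libraries: deviations of IP and Input of a number correlated at -0.034 to 0.023 over 13527 genes, and 3 of 12 libraries were closest to their own number. With the number as a replicate block, 1 member was higher and 4 lower in IP in Ctrl, 0 and 5 in IR, and 1 and 2 in the change with IR. The block changed no member's call in these comparisons, and *Tank* was not past the threshold for that change (0.46, adjusted p = 0.0531). In the Input it added *Tbk1* (-0.11, adjusted p = 0.0194) to the members lower, making 3, and *Dhx58* was called higher (0.23, adjusted p = 0.0438).

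Sign changes of IP over Input in Ctrl were at *Cgas* (-0.11 with library size only, -0.043 with no filter) and *Tmem173* (0.029 with protein-coding nuclear genes). In IR they were at *Irf3* (0.12 with library size only, 0.10 with protein-coding nuclear genes, 0.016 with DESeq2 or its size factors, 0.090 with 10 counts in every library) and *Samhd1* (0.11, 0.093, 0.0065 and 0.081 likewise). *Zbp1* (0.086, 0.072 and 0.058 with library size, coding genes and the stricter filter), *Irf7* (0.028 and 0.013 with library size and coding genes), *Cgas* (-0.13) and *Traf3* (-0.063, both with no filter) followed. The change with IR turned at *Ddx58* (0.27 with library size, 0.041 with coding genes, 0.021 with DESeq2 or its size factors, 0.073 with the stricter filter), *Cgas* (0.27, 0.037, 0.018 and 0.071 likewise) and *Mavs* (0.037 with library size). IR over Ctrl turned at *Ddx58* (-0.012, library size) and *Ikbke* (0.0001 with coding genes, 0.041 in the single fit) in the Input and at *Zbp1* (0.12, library size) in the IP. With libraries left out, IP over Input in IR spanned -0.051 to 0.16 for *Cgas*, -0.055 to 0.072 for *Irf3*, -0.20 to 0.099 for *Irf7*, -0.062 to 0.072 for *Samhd1* and -0.087 to 0.16 for *Zbp1*, and its change with IR -0.14 to 0.10 for *Cgas*, -0.088 to 0.066 for *Ddx58* and -0.060 to 0.25 for *Irf7*. IR over Ctrl spanned -0.033 to 0.049 for *Ddx58*, -0.014 to 0.21 for *Ifi204* and -0.037 to 0.015 for *Ikbke* in the Input, and -0.0012 to 0.14 for *Ddx58* and -0.24 to 0.081 for *Zbp1* in the IP.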
